A study of Caenorhabditis elegans with 16 samples.

Results

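The genes described here are those that specify the endoderm of the *Caenorhabditis elegans* embryo and the Wnt pathway genes that act with them, namely *skn-1*, *med-1*, *med-2*, *end-1*, *end-3*, *mom-2*, *lit-1*, *wrm-1*, *sys-1* and *pop-1*. They were chosen by name, and all 10 were found among the 21882 genes counted. Polyadenylated RNA was sequenced from mixed-stage embryos of the wild-type strain N2 and of SX3678, a strain homozygous for *fbxa-215(syb4404)*, in which genome editing had removed the whole coding sequence of this F-box gene. SX3678 came from an edited strain that was outcrossed to N2. Parents of both strains were hatched at 20 °C and then grown at 20 °C, with embryos taken by bleaching 56 h after plating, or at 25 °C, with embryos taken at 47 h. There were 4 libraries for each of the 4 combinations of strain and temperature, 16 in all, each from whole embryos pooled from many animals. The study asked whether FBXA-215 acts on transcription, with RNA from embryos and young adults, DNA-binding assays and protein localization. The comparison between strains at each temperature addresses this question for the RNA of the endoderm genes in embryos.

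The endoderm of *C. elegans* descends from the E blastomere, a daughter of the blastomere EMS, and the other daughter, MS, makes mesoderm. SKN-1, a transcription factor supplied by the mother, switches on the GATA factor genes *med-1* and *med-2* in EMS. The neighbouring blastomere P2 sends a Wnt signal, MOM-2, which polarises EMS so that LIT-1, a Nemo-like kinase, and its β-catenin partner WRM-1 lower nuclear POP-1 in E, while SYS-1, a divergent β-catenin, converts the remaining POP-1 from a repressor to an activator. The GATA genes *end-1* and *end-3* are then transcribed in E for a short time and start the intestinal programme through *elt-7* and *elt-2*. Transcripts of *skn-1*, *mom-2*, *lit-1*, *wrm-1*, *sys-1* and *pop-1* are loaded into the oocyte, whereas those of the *med* and *end* genes are made by the zygote in very few cells.

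Total counts ranged from 10001569 to 16777140 per library, and levels are given as CPM, counts scaled to a common library total. *fbxa-215* had 2170 to 3214 counts in the N2 libraries, 1 count in a single SX3678 library and 0 in the other 7, as the labels state (exact two-sided permutation test, p = 0.0286 at each temperature, the smallest that 4 against 4 libraries allow). All 20 maternal, 18 early zygotic and 22 late differentiation markers examined had counts, while 12 transcripts of adults and sperm summed to between 6.32 and 15.7 CPM, 2 of them at 0 throughout. The balance of late and maternal transcripts differed between groups. A stage score, the mean log2 CPM of the late markers minus that of the maternal markers, was -0.59 ± 0.099 in N2 and -0.85 ± 0.14 in SX3678 at 20 °C (SD, n = 4; exact permutation p = 0.0571), and 0.95 ± 0.068 and 0.67 ± 0.11 at 25 °C (exact permutation p = 0.0286). SX3678 had the lower mean score at both temperatures, and all 8 libraries at 25 °C scored above all 8 at 20 °C. At 20 °C the strains overlapped only between N2 replicate 3, at -0.74, and SX3678 replicate 1, at -0.67. A fit with the score as a covariate therefore separates strain from stage poorly at 20 °C too. In whole embryos, fewer cells of a type and less RNA per cell cannot be told apart, and neither can a change in the mix of embryo ages.

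Levels of the 10 genes spanned more than 2 orders of magnitude, with the maternally supplied genes well above the zygotic ones. Expressed as CPM per kilobase of exon (RPKM) in N2 at 20 °C, *pop-1* was the most abundant at 163 ± 4.82 (SD, n = 4), followed by *mom-2* at 133 ± 5.40 and *lit-1* at 112 ± 8.20. The β-catenin genes and *skn-1* came next, *sys-1* at 79.5 ± 3.57, *wrm-1* at 74.7 ± 3.52 and *skn-1* at 71.1 ± 1.65 RPKM, and the libraries of neighbours in this trio overlapped. Below a gap stood *end-1* at 18.9 ± 2.88 and *end-3* at 3.82 ± 0.274 RPKM. At the bottom were *med-1* at 0.974 ± 0.138 and *med-2* at 0.801 ± 0.395 RPKM, whose libraries overlapped. Averages over the 16 libraries were ranked against the 12081 genes that passed the filter on low counts and had a length, not against all genes counted. *pop-1*, *lit-1* and *mom-2* stood at the 93.6th, 91.4th and 91.4th percentile of these, *end-1* at the 49.7th and *end-3* at the 28.3rd. The levels of *med-1* and *med-2*, which did not pass that filter themselves, would fall at the 15.2nd and 10.4th.

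The order changed little between groups. *pop-1* ranked highest in all 4 groups and the order *end-1*, *end-3*, *med-1*, *med-2* held at the lower end in each. At 20 °C *mom-2* stood above *lit-1* in both strains, and at 25 °C *lit-1*, at 134 ± 16.6 in N2 and 135 ± 4.38 RPKM in SX3678, stood above *mom-2*, at 116 ± 6.34 and 118 ± 3.15 RPKM. In N2 at 25 °C the libraries of *pop-1* and *lit-1* overlapped, as did those of *lit-1* and *mom-2*. With the length of the longest transcript in place of all exons, *lit-1* rose to 134 and *skn-1* to 80.99 RPKM in N2 at 20 °C. In that group *lit-1* then moved past *mom-2* and *skn-1* past the β-catenins. *lit-1* also moved past *mom-2* in SX3678 at 20 °C, at 145 against 134 RPKM, and past *pop-1* in N2 at 25 °C. The order of *mom-2* and *lit-1* at 20 °C thus depended on the length used in both strains.

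**Figure D1:**
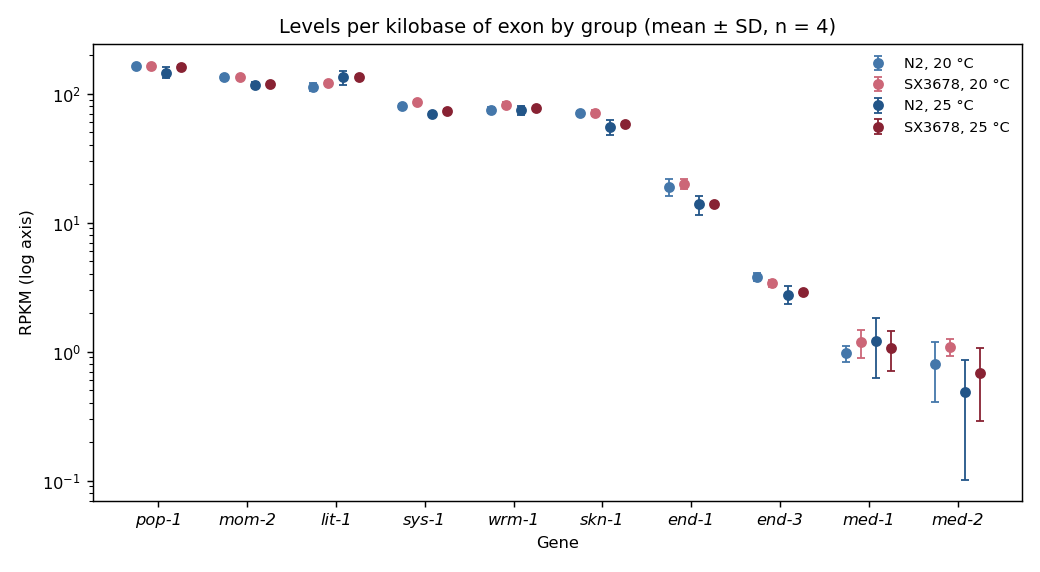
RPKM of the 10 genes on a log axis, as mean ± SD of 4 libraries in each of the 4 groups. The 6 maternally supplied genes lie between 54.9 and 163 RPKM in every group, *end-1* between 13.9 and 20.0, *end-3* between 2.77 and 3.82, and the *med* genes near 1.

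Between strains, none of the 8 tested genes changed by more than 2-fold at either temperature, where 1.12% of 10470 genes at 20 °C and 0.31% of 11944 at 25 °C did so (edgeR quasi-likelihood test, Benjamini-Hochberg adjusted p under 0.05 and fold above 2). Without the fold minimum, 2 of 8 passed at 20 °C, *wrm-1* and *sys-1*, both higher in SX3678, against 17.3% of all genes tested. None of 8 passed at 25 °C, where 4.13% of all genes did, although the 493 genes behind that share became 132 without SX3678 replicate 4, 151 without SX3678 replicate 1 and 843 without N2 replicate 4. At 25 °C 2 of 8 had an unadjusted p under 0.05, and the count with DESeq2 and with limma-voom was also 0. For none of the 8 did the 4 libraries of the strains separate without overlap, while 19.8% of genes at 20 °C and 12.8% at 25 °C separated in this way. *med-1* and *med-2* had too few counts to be tested with the others. The median log2 fold change of the 8 genes was 0.040 at 20 °C and 0.078 at 25 °C, beside 0.0015 and -0.0023 over all genes. Among the 95% intervals the bound farthest from 0 was that of *end-3*, a 1.44-fold decrease at 20 °C and a 1.37-fold increase at 25 °C, and for the 6 maternally supplied genes it was 1.16-fold (*wrm-1*) and 1.23-fold (*pop-1*). The replicates were not stated to be separate cultures, so the p-values measure the spread between these libraries.

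**Figure D2:**
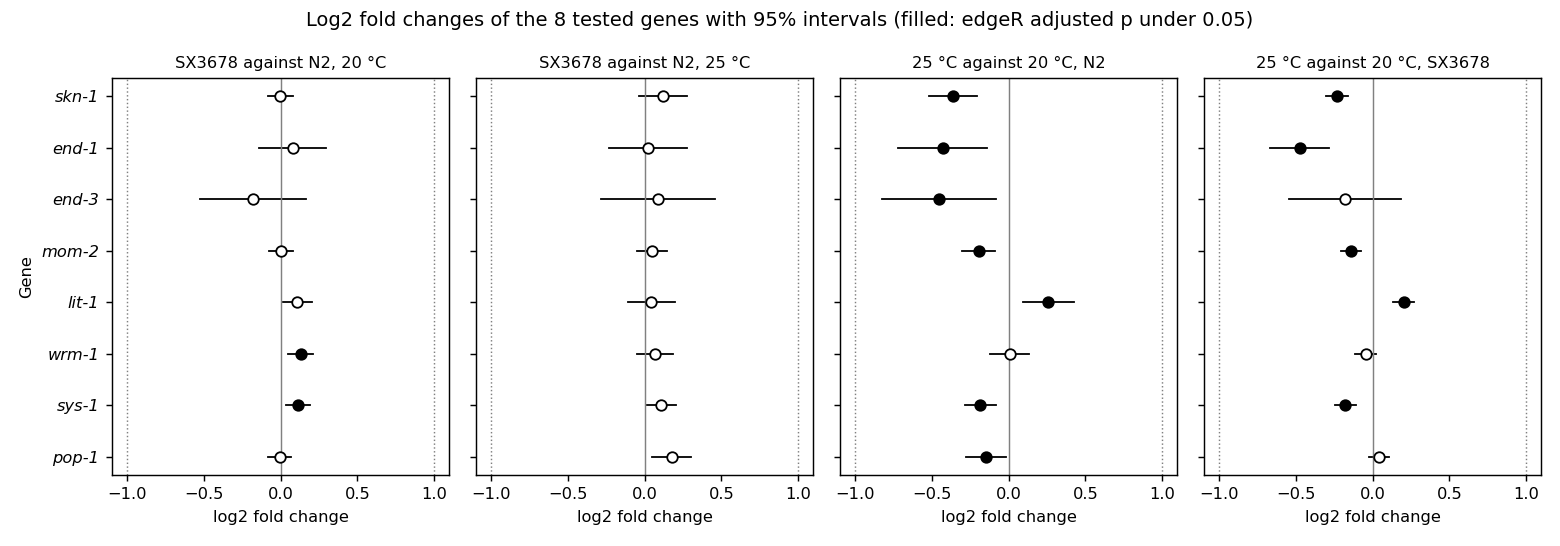
Log2 fold change of each tested gene (point) with its 95% interval (line) in the 4 comparisons, filled where the edgeR adjusted p was under 0.05, with dotted lines at 2-fold. Between strains only *wrm-1* and *sys-1* at 20 °C are filled, at 0.13 and 0.11, and no interval reaches 2-fold in any comparison.

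*skn-1* (WBGene00004804, chromosome IV, 5651039 to 5660384, minus strand, WBcel235) encodes the maternal factor at the top of the pathway. At 20 °C it stood at 216, 205, 208 and 212 CPM in the 4 N2 libraries and at 222, 218, 205 and 198 CPM in the 4 SX3678 libraries. At 25 °C the N2 libraries held 166, 174, 178 and 132 CPM and the SX3678 libraries 176, 177, 169 and 172 CPM. The strains overlapped at both temperatures, and the spread in N2 at 25 °C came from replicate 4, the lowest of all 16. SX3678 differed from N2 by -0.0034 ± 0.040 (SE) on the log2 scale at 20 °C (edgeR adjusted p 0.965) and by 0.12 ± 0.073 at 25 °C (adjusted p 0.356). The 95% interval was -0.085 to 0.079 at 20 °C. The gene has 4 annotated transcripts and shares 41 exonic bases with *csn-5* on the opposite strand, and the libraries did not keep strand.

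*med-1* (WBGene00003180, chromosome X, 12430609 to 12431133, plus strand) and *med-2* (WBGene00003181, chromosome III, 6884503 to 6885027, plus strand) encode near-identical GATA factors, each from a single exon of 525 bases. Salmon can divide reads that match both. The deposited counts were whole in 16 libraries for *med-1* and in 15 for *med-2*, while 27.4% of all deposited values were not whole. Whether reads of the pair were divided was not tested, so their separate values are uncertain. *med-1* had 8, 7, 7 and 4 counts in the N2 libraries and 6, 11, 10 and 9 in the SX3678 libraries at 20 °C, and 6, 17, 9 and 7 against 13, 8, 6 and 7 at 25 °C. *med-2* had 5, 5, 3 and 7 counts in N2 and 7, 10, 8 and 8 in SX3678 at 20 °C, and 3, 0, 6 and 6 against 2, 4, 8 and 7 at 25 °C. The library with 0 counts of *med-2*, N2 replicate 2 at 25 °C, had the most *med-1*, and a count of 0 there allows up to 0.195 CPM (3 counts). Summed, the pair had 13, 12, 10 and 11 counts in N2 and 13, 21, 18 and 17 in SX3678 at 20 °C. Scaled for library size the strains overlapped. At 25 °C the sums were 9, 17, 15 and 13 in N2 and 15, 12, 14 and 14 in SX3678, and the strains overlapped. For the sum, SX3678 differed from N2 by 0.35 ± 0.28 (SE) on the log2 scale at 20 °C (edgeR adjusted p 0.435) and by 0.064 ± 0.28 at 25 °C (adjusted p 0.920). The 95% interval at 20 °C was -0.24 to 0.93 on the log2 scale.

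*end-1* (WBGene00001310, chromosome V, 13985128 to 13987074, plus strand) and *end-3* (WBGene00001311, chromosome V, 14014695 to 14015980, plus strand) encode the GATA factors of the E lineage and lie 27.6 kb apart. *end-1* stood at 15.7, 14.6, 10.999 and 15.3 CPM in N2 and at 12.99, 15.4, 15.5 and 16.04 CPM in SX3678 at 20 °C. At 25 °C it stood at 10.6, 11.9, 7.85 and 11.2 CPM in N2 and at 10.4, 10.3, 10.9 and 10.03 CPM in SX3678. Replicate 3 was the lowest N2 library at both temperatures, and at 25 °C the 4 SX3678 libraries lay inside the range of N2. Between strains *end-1* differed by 0.078 ± 0.11 on the log2 scale at 20 °C (edgeR adjusted p 0.665) and by 0.024 ± 0.12 at 25 °C (adjusted p 0.931), and these values turned to -0.035 and -0.087 without replicate 3 of N2.

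*end-3* was less abundant, with 28 to 47 counts per library. It stood at 3.31, 3.62, 3.22 and 3.06 CPM in N2 and at 2.94, 2.84, 3.20 and 2.76 CPM in SX3678 at 20 °C. At 25 °C it stood at 2.78, 2.22, 1.95 and 2.62 CPM in N2 and at 2.60, 2.52, 2.35 and 2.54 CPM in SX3678. At 20 °C the strains overlapped only between SX3678 replicate 3 and N2 replicate 4. The strain difference was -0.18 ± 0.17 on the log2 scale at 20 °C (edgeR adjusted p 0.499, 95% interval -0.52 to 0.16) and 0.088 ± 0.17 at 25 °C (adjusted p 0.806). Within a group the SD of *end-3* was 4.35% to 15.9% of its mean, beside the 15.2% to 16.6% that counting alone gives. The ratio of *end-1* to *end-3* in RPKM was 4.97 ± 0.832 in N2 and 5.93 ± 0.716 in SX3678 at 20 °C, and 5.04 ± 0.780 and 4.81 ± 0.359 at 25 °C.

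**Figure D3:**
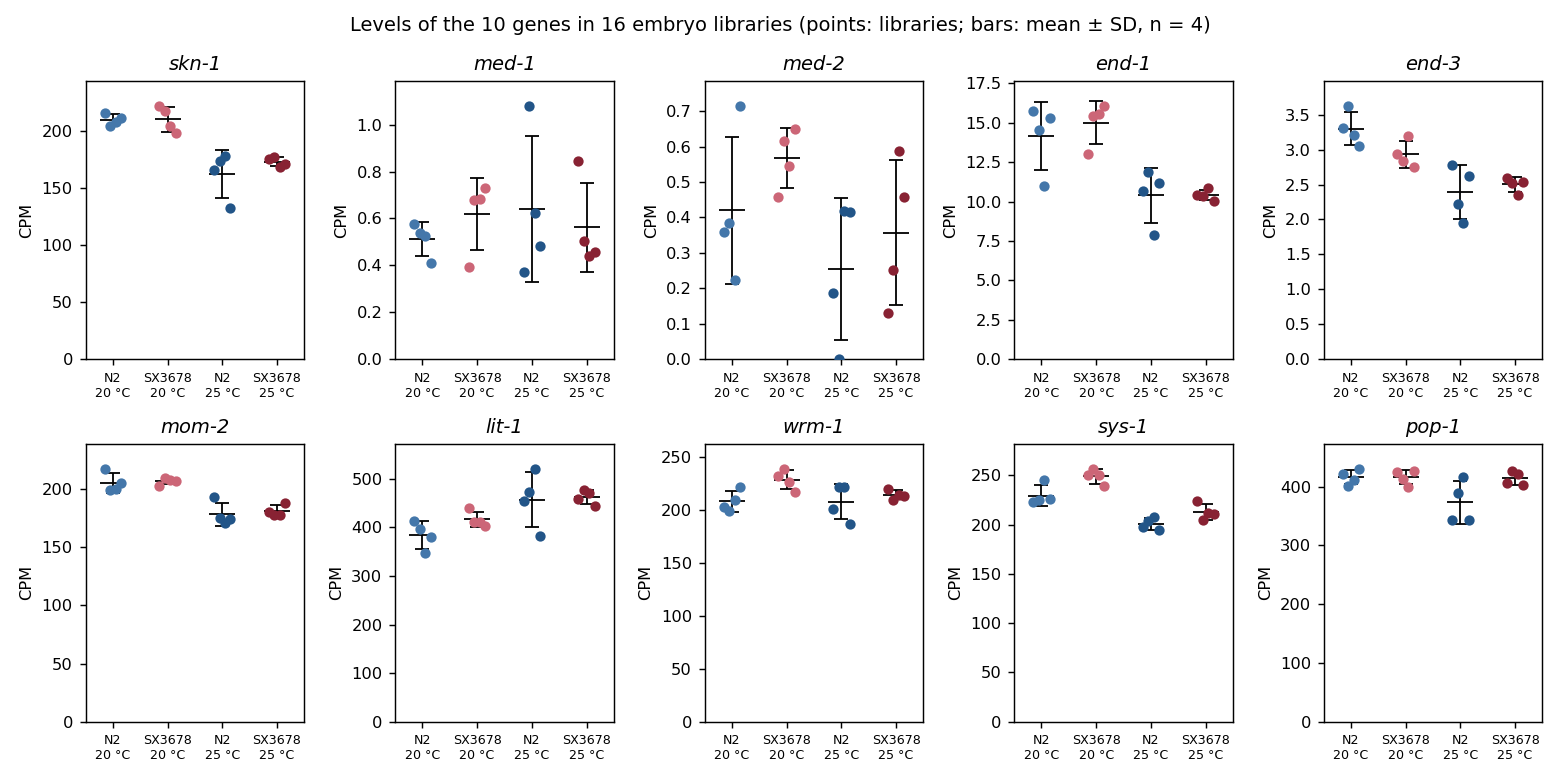
CPM of each of the 10 genes in the 16 libraries (points) with the mean ± SD of each group (n = 4), each panel on its own axis from 0. The strains overlap in every tested gene at both temperatures, *end-1* is lower at 25 °C in SX3678 without overlap, and the *med* genes scatter over 0 to 1.08 CPM.

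*mom-2* (WBGene00003395, chromosome V, 8355988 to 8358185, plus strand), the Wnt ligand of P2, had a coefficient of variation within groups of 1.32% to 5.47%. At 20 °C it ranged from 199 to 217 CPM in N2 and from 203 to 209 CPM in SX3678. At 25 °C it ranged from 171 to 193 CPM in N2 and from 178 to 188 CPM in SX3678. The strains overlapped at both temperatures and differed by 0.0025 ± 0.037 on the log2 scale at 20 °C (edgeR adjusted p 0.972, 95% interval -0.075 to 0.080) and by 0.047 ± 0.047 at 25 °C (adjusted p 0.576).

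*lit-1* (WBGene00003048, chromosome III, 13701991 to 13724404, plus strand), the kinase gene with 7 annotated transcripts, stood at 413, 397, 347 and 379.9 CPM in N2 and at 439, 412, 411 and 403 CPM in SX3678 at 20 °C. At 25 °C it stood at 453, 472, 520.0 and 383 CPM in N2 and at 458, 478, 472 and 444 CPM in SX3678. The N2 libraries at 25 °C spanned the whole SX3678 range, with replicate 4 lowest and replicate 3 highest. SX3678 was above N2 by 0.11 ± 0.046 on the log2 scale at 20 °C (edgeR adjusted p 0.109) and by 0.043 ± 0.071 at 25 °C (adjusted p 0.760). At 20 °C with the stage score as a covariate *lit-1* was 0.26 at an adjusted p of 0.0210. Without that covariate the adjusted p of *lit-1* at 20 °C came to 0.0337 without a filter on low counts, to 0.0346 without N2 replicate 1 and to 0.373 without N2 replicate 3, where the log2 fold change was 0.058.

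*wrm-1* (WBGene00006943, chromosome III, 5722850 to 5727115, plus strand), the β-catenin gene whose product binds LIT-1, was higher in SX3678 at 20 °C by 1.09-fold. The N2 libraries held 203, 199, 209 and 222 CPM and the SX3678 libraries 233, 239, 227 and 217 CPM, so that 3 of the 4 SX3678 libraries were above every N2 library. The log2 fold change was 0.13 ± 0.040 (SE), with an edgeR adjusted p of 0.0274 and a 95% interval of 0.047 to 0.21. At 25 °C N2 held 201, 222, 221 and 187 CPM and SX3678 220.3, 209.6, 214 and 214 CPM, all SX3678 libraries within the N2 range, and the log2 fold change was 0.068 ± 0.056 (adjusted p 0.493). The call at 20 °C was lost without N2 replicate 1 or 2, or without SX3678 replicate 1, 2 or 3, at edgeR adjusted p of 0.0542 to 0.128, in a fit over all 16 libraries, at 0.0693, and with the stage score as a covariate, at 0.162 and a log2 fold change of 0.17.

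*sys-1* (WBGene00006379, chromosome I, 9980063 to 9984794, minus strand), the β-catenin gene whose product binds POP-1, was higher in SX3678 at 20 °C by 1.08-fold. The N2 libraries held 223, 224, 245 and 226 CPM and the SX3678 libraries 249.9, 256, 251 and 239 CPM, and the strains overlapped only between N2 replicate 3 and SX3678 replicate 4. The log2 fold change was 0.11 ± 0.038 (SE), with an edgeR adjusted p of 0.0484, just under the threshold. At 25 °C N2 held 198, 204, 207 and 194 CPM and SX3678 224, 205, 212 and 211 CPM, a difference of 0.11 ± 0.045 on the log2 scale (adjusted p 0.172), and the strains overlapped through SX3678 replicate 2. The call at 20 °C was lost without N2 replicate 1, 2 or 4 or without SX3678 replicate 1, 2 or 3 (edgeR adjusted p 0.0805 to 0.169), and with upper-quartile scaling, at least 10 counts in every library or all 16 libraries in the fit (0.0724, 0.0586 and 0.0560). With the stage score as a covariate the log2 fold change was 0.073 at an edgeR adjusted p of 0.566. The score barely overlapped between strains at 20 °C, so that fit separates strain from stage poorly.

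*pop-1* (WBGene00004077, chromosome I, 2822243 to 2830311, minus strand), the TCF factor at which the SKN-1 and Wnt branches meet, did not differ detectably between strains at 20 °C. The N2 libraries held 421, 402, 411 and 430.1 CPM and the SX3678 libraries 425, 413, 400.2 and 426 CPM, and the log2 fold change was -0.0062 ± 0.036 (edgeR adjusted p 0.929), with a 95% interval of -0.081 to 0.068. At 25 °C N2 held 344, 390.0, 416 and 343 CPM and SX3678 406, 426, 421 and 403 CPM. Here the N2 libraries fell into a lower pair, replicates 1 and 4, and a higher pair inside or near the SX3678 range. The log2 fold change at 25 °C was 0.18 ± 0.060 with an adjusted p of 0.115 (unadjusted p 0.0109), and it passed only without N2 replicate 3, at 0.23 and an edgeR adjusted p of 0.0253. *pop-1* shares 100 exonic bases with the non-coding gene *W03D8.13*. The RPKM ratio of *sys-1* to *pop-1*, coactivator to DNA-binding partner, was 0.490 ± 0.0289 in N2 and 0.531 ± 0.0273 in SX3678 at 20 °C, and 0.480 ± 0.0319 and 0.456 ± 0.0266 at 25 °C, and the strains overlapped at each temperature.

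N2 replicate 4 at 25 °C was the lowest N2 library at that temperature for *skn-1*, *pop-1*, *wrm-1*, *lit-1* and *sys-1*, by a narrow margin for *pop-1* and *sys-1*, though not for *mom-2*, *end-1* or *end-3*. Without it the log2 fold change between strains at 25 °C fell to 0.031 for *skn-1*, to 0.020 for *wrm-1*, to 0.14 for *pop-1* and to -0.035 for *lit-1*. Its stage score, 0.89, was the lowest of the N2 libraries at 25 °C and above all 4 SX3678 libraries.

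The difference of the strain effects between temperatures was tested directly in a fit over all 16 libraries. None of the 8 genes passed, where 1.16% of 12116 genes did so and 0.182% also passed 2-fold. Those 141 genes became 19 without SX3678 replicate 3 at 20 °C and 420 without N2 replicate 3 at 25 °C, and the 22 past 2-fold became 4 and 64. The largest interaction on the log2 scale was that of *end-3*, 0.24 ± 0.22 (SE, edgeR adjusted p 0.668), and the only unadjusted p under 0.05 was that of *pop-1*, at 0.15 ± 0.071 with an adjusted p of 0.330. The strain effects on *wrm-1* and *sys-1*, which passed at 20 °C and not at 25 °C, were thus not shown to differ between temperatures, with interactions of -0.093 ± 0.069 and -0.035 ± 0.057 (adjusted p 0.562 and 0.823).

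Between temperatures the endoderm genes that passed did so in both directions, each by less than 2-fold. In N2, 7 of 8 passed, 1 higher and 6 lower at 25 °C, against 66.1% of 11578 genes (edgeR, adjusted p under 0.05), and 4 of 8 separated without overlap, all lower at 25 °C, against 60.2% of genes. In SX3678, 5 of 8 passed, 1 higher and 4 lower, against 69.3% of 11558 genes, and 6 of 8 separated, against 65.8%. Change beyond 2-fold was common in the embryo as a whole, at 21.1% of genes in N2 and 19.9% in SX3678, and was seen in 0 of 8 here. The median log2 fold change of the 8 was -0.19 in N2 and -0.16 in SX3678, beside 0.0022 and 0.0043 over all genes. These comparisons share their libraries with those between strains. Growth temperature, hours after plating, collection batch and the stage score changed together and cannot be told apart. In N2 the summed late markers were at 3771 to 4374 CPM at 20 °C and at 7015 to 7801 CPM at 25 °C, and the summed maternal markers were at 2714 to 2924 and 1948 to 2036 CPM.

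The zygotic *end* genes and maternal *skn-1* were among those lower at 25 °C. *skn-1* fell by 0.364 ± 0.073 on the log2 scale in N2 and by 0.234 ± 0.035 in SX3678, with edgeR adjusted p of 4.24e-04 and 2.59e-06, and the temperatures did not overlap in either strain. *end-1* had a mean of 14.1 ± 2.15 CPM (SD, n = 4) at 20 °C and 10.4 ± 1.76 CPM at 25 °C in N2, and 14.99 ± 1.37 and 10.4 ± 0.341 CPM in SX3678. Its log2 fold change was -0.43 ± 0.14 in N2, where the libraries overlapped, and -0.48 ± 0.092 in SX3678, where they did not (edgeR adjusted p 0.0110 and 6.98e-05). *end-3* was -0.46 ± 0.17 in N2, past the threshold (adjusted p 0.0305), and -0.18 ± 0.18 in SX3678, not past it (0.375), although the temperatures separated in both strains. The call in N2 was lost with DESeq2 (adjusted p 0.0609), with upper-quartile scaling (-0.39, 0.0603) and without N2 replicate 1 or 2 at 20 °C or replicate 2 or 3 at 25 °C (edgeR adjusted p 0.0531 to 0.0958). The summed *med* genes showed -0.042 ± 0.29 in N2 and -0.32 ± 0.28 in SX3678 (edgeR adjusted p 0.909 and 0.316).

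The Wnt genes did not move together between temperatures. *lit-1* was the only one higher at 25 °C in both strains, by 1.20-fold in N2 and 1.15-fold in SX3678, with log2 fold changes of 0.26 ± 0.079 and 0.20 ± 0.033 (edgeR adjusted p 0.00905 and 8.51e-06). In SX3678 all 4 libraries at 25 °C were above all 4 at 20 °C, whereas in N2 replicate 4 at 25 °C, at 383 CPM, fell within the range at 20 °C. Without N2 replicate 3 at 20 °C its log2 fold change in N2 was 0.19 at an edgeR adjusted p of 0.0579. *wrm-1*, its partner, was close to level, at 0.0068 ± 0.059 in N2 and -0.046 ± 0.033 in SX3678 (adjusted p 0.928 and 0.219), so that the RPKM ratio of *wrm-1* to *lit-1* went from 0.669 ± 0.0692 to 0.561 ± 0.0345 in N2 and from 0.675 ± 0.0273 to 0.569 ± 0.0255 in SX3678, with no overlap in either strain.

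*sys-1* and *mom-2* were lower at 25 °C without overlap in both strains. *sys-1* had log2 fold changes of -0.18 ± 0.048 in N2 and -0.18 ± 0.033 in SX3678 (edgeR adjusted p 0.00314 and 3.59e-05), and *mom-2* of -0.20 ± 0.051 and -0.14 ± 0.031 (0.00341 and 2.61e-04). *pop-1* was -0.15 ± 0.062 in N2 (adjusted p 0.0452) and 0.042 ± 0.032 in SX3678 (adjusted p 0.242). The call of *pop-1* in N2 was lost with DESeq2 (adjusted p 0.0544), with RLE scaling (adjusted p 0.0548) and with upper-quartile scaling (-0.086, adjusted p 0.245). It was also lost with at least 10 counts in every library (-0.085, adjusted p 0.273) and without N2 replicate 1 or 4 at either temperature. In SX3678 *pop-1* passed in the other direction with upper-quartile scaling (0.079, adjusted p 0.0313) and with at least 10 counts (0.081, adjusted p 0.0234).

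The wider pathway was examined in 44 further genes in 6 lists, of which 43 could be tested. At 20 °C 7 of 43 passed between strains, 2 higher and 5 lower in SX3678, and at 25 °C 3 of 43 passed, all higher, against the 17.3% and 4.13% of all genes given above. None changed beyond 2-fold in the main fits. Among the 6 genes for Wnt ligands and their secretion, *lin-44*, a Wnt made in the tail epidermis, was lower in SX3678 at 20 °C, at 1.65 ± 0.199 CPM against 3.13 ± 0.859 CPM in N2 (SD, n = 4). Its log2 fold change was -0.95 ± 0.22 (edgeR adjusted p 0.00447), and -0.24 ± 0.14 at 25 °C (0.319). Without N2 replicate 4 it was -1.07 at 20 °C (edgeR adjusted p 0.00242), past 2-fold. Of the 7 receptor genes, 2 passed at 20 °C, both lower, and *mig-1*, a Frizzled receptor, went from 84.4 ± 3.75 CPM in N2 to 70.1 ± 2.51 CPM in SX3678, a log2 fold change of -0.27 ± 0.046 (edgeR adjusted p 2.27e-04). The other was *cam-1*, a Ror receptor kinase, at -0.13 ± 0.035 (adjusted p 0.0127), whose call was lost without SX3678 replicate 3 (0.0608) and with all 16 libraries in the fit (0.0713). The late markers were also lower in SX3678 at 20 °C, 9 of 18 tested passing, with a median of -0.19. None of the 12 cytoplasmic components or the 2 genes of the SRC pathway, which acts beside the Wnt signal in EMS, passed at either temperature. With the stage score as a covariate *lin-44*, *mig-1* and *cam-1* were -0.70, -0.23 and -0.094 on the log2 scale, at edgeR adjusted p of 0.304, 0.0870 and 0.406.

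Downstream of the *end* genes, 5 E and MS lineage factors were examined and 4 could be tested, all with higher values in SX3678 at 20 °C. The 2 that passed were intestinal GATA factors. *elt-7* had 23.8 ± 1.78 CPM in N2 and 29.7 ± 1.21 CPM in SX3678 at 20 °C, a log2 fold change of 0.31 ± 0.069 (edgeR adjusted p 0.00336). *elt-2*, which maintains the intestine through life, had 28.6 ± 1.79 and 32.9 ± 2.18 CPM, a log2 fold change of 0.20 ± 0.067 (adjusted p 0.0446). The MS genes *tbx-35*, at 0.41 ± 0.27, and *ceh-51*, at 0.071 ± 0.070, did not pass (adjusted p 0.322 and 0.536), and *elt-4* had at most 9 counts and was not tested. The median of the 4 was 0.25 at 20 °C, beside 0.0015 over all genes and 0.13 over the 18 early zygotic markers, 17 of which were above 0 and 4 of which passed. At 25 °C none passed, with *elt-7* at 0.073 ± 0.081 and *elt-2* at 0.060 ± 0.056 (adjusted p 0.623 and 0.556), and the interaction of *elt-7* was -0.27 ± 0.10 (0.226). The call of *elt-2* was lost with DESeq2 (adjusted p 0.0677) and without N2 replicate 1, 3 or 4 or SX3678 replicate 1, 2 or 3 (edgeR adjusted p 0.0755 to 0.152). It was also lost with upper-quartile scaling (0.0531) and with at least 10 counts in every library (0.0501). With the stage score as a covariate *elt-7* was 0.34 and *elt-2* 0.30, at edgeR adjusted p of 0.0863 and 0.104.

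Among the 12 regulators and partners of SKN-1 and POP-1, 2 passed at 20 °C, both lower in SX3678, and 3 at 25 °C, all higher, beside 17.3% and 4.13% of all genes. *sptf-3*, a zinc finger factor that contributes to endoderm specification, was at -0.14 ± 0.040 on the log2 scale at 20 °C (edgeR adjusted p 0.0159). Its call was lost without SX3678 replicate 4 (-0.12, adjusted p 0.0605), with all 16 libraries in the fit (0.0920) and with the stage score (-0.14, 0.266). *mex-3*, which encodes a maternal RNA-binding protein, was at -0.13 ± 0.034 at 20 °C (adjusted p 0.0115), lost with all 16 libraries (0.0588) and with the stage score (-0.11, 0.306). At 25 °C *mex-3* was at 0.13 ± 0.051 (edgeR adjusted p 0.157). The 3 genes that passed at 25 °C, *mex-1*, *oma-1* and *spn-4*, also encode maternal RNA-binding proteins, as do others of the list that did not pass. *mex-1* went from 117 ± 4.56 CPM in N2 to 136 ± 3.56 CPM in SX3678, a log2 fold change of 0.24 ± 0.045 (edgeR adjusted p 0.00973). *oma-1* and *spn-4* had log2 fold changes of 0.17 ± 0.040 and 0.17 ± 0.046 (adjusted p 0.0267 and 0.0454), and these calls were lost in 5 and 6 of the 8 fits that left out a library, as was that of *mex-1* without SX3678 replicate 4 (edgeR adjusted p 0.0540). Upper-quartile scaling also lost the calls of *oma-1* and *spn-4* (edgeR adjusted p 0.0569 and 0.0760). That of *spn-4* was lost with at least 10 counts in every library as well (0.0542). Of the maternal markers, 15 of 18 tested were above 0 at 25 °C, with a median of 0.12, and 4 passed, all higher in SX3678. With the stage score as a covariate *mex-1*, *oma-1* and *spn-4* were 0.20, 0.10 and 0.15 on the log2 scale, at edgeR adjusted p of 0.527, 0.710 and 0.620. At 25 °C the score itself separated the strains, at 0.891 to 1.04 in N2 and 0.565 to 0.771 in SX3678. That fit therefore cannot tell strain from stage. In the main edgeR fit the interaction did not pass for *mex-1*, *oma-1* or *spn-4*, at adjusted p of 0.116, 0.241 and 0.0817. With DESeq2 it passed for each, at 0.0276, 0.0400 and 0.00608. With edgeR and no count filter it passed for *mex-1* (0.0230) and *spn-4* (0.0133), and with RLE scaling for *spn-4* (0.0456). The interaction of *mex-3* was 0.22 ± 0.059 at an edgeR adjusted p of 0.0603. It passed in 7 of 25 recomputed fits, among them DESeq2 (0.00836), RLE scaling (0.0416) and upper-quartile scaling (0.0458).

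Between temperatures 13 of the 43 genes were higher and 17 lower at 25 °C in N2, beside 66.1% of all genes passing, and 18 were higher and 16 lower in SX3678, beside 69.3%. Of the list of SKN-1 and POP-1 partners, 9 of 12 were lower and 1 was higher in N2, with a median log2 fold change of -0.49, and 8 were lower and 1 higher in SX3678, with a median of -0.25. The 6 genes for Wnt ligands and their secretion had a median of 0.40 in N2, with 4 higher and 1 lower, while the receptors had 3 higher and 2 lower of 7 and the cytoplasmic components 4 higher and 3 lower of 12. Beyond 2-fold in N2 were 3 of 43, beside 21.1% of all genes, namely *egl-20*, a posterior Wnt, *bar-1*, the β-catenin of larval Wnt signalling, and *lin-44*. *egl-20* went from 2.54 ± 0.624 to 7.66 ± 0.959 CPM, *bar-1* from 4.91 ± 1.23 to 13.4 ± 0.740 CPM and *lin-44* from 3.13 ± 0.859 to 8.64 ± 0.543 CPM in N2. Their log2 fold changes were 1.59 ± 0.17, 1.47 ± 0.15 and 1.45 ± 0.16 in N2 and 1.83 ± 0.19, 1.87 ± 0.14 and 2.18 ± 0.19 in SX3678, with edgeR adjusted p of at most 1.03e-06. In the same comparison in N2, 11 of 18 maternal markers passed lower (median -0.41) and 18 of 21 late markers passed higher (median 1.37).

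**Figure D4:**
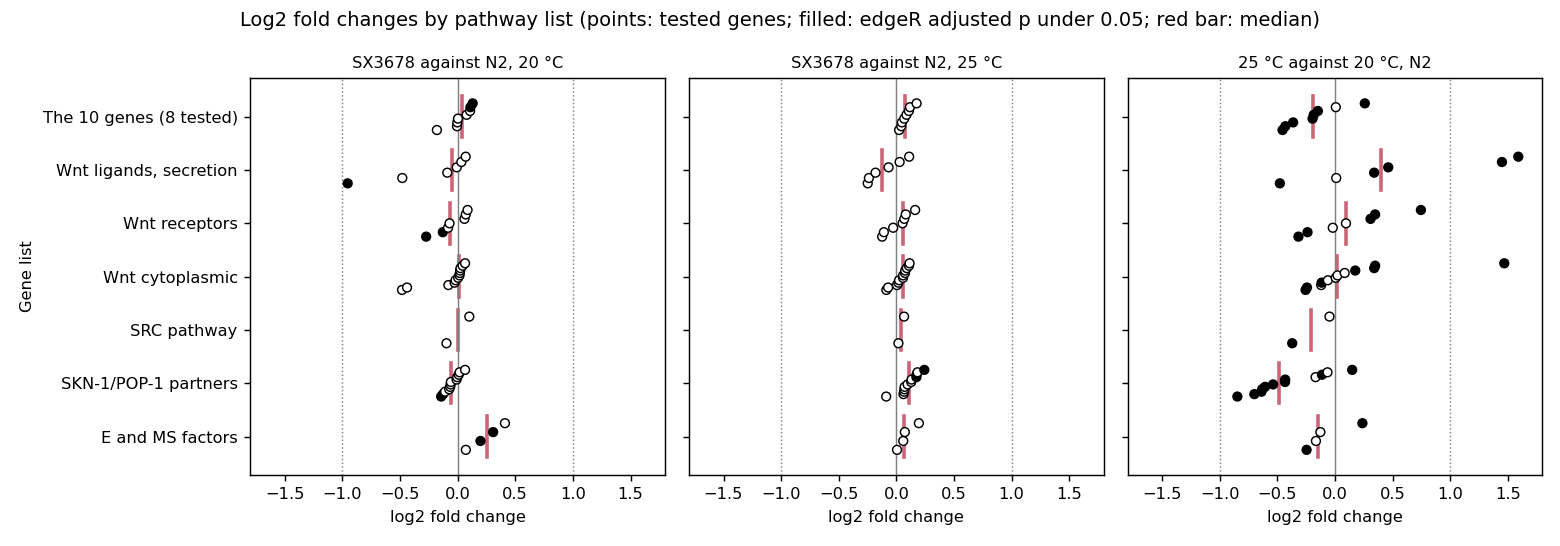
Log2 fold change of each tested gene (points, filled where the edgeR adjusted p was under 0.05) in the 10 genes and in the 6 pathway lists, with the median of each list as a red bar, for both strain comparisons and for temperature in N2. Between strains the points gather near 0, with *lin-44* at -0.95 the farthest, whereas between temperatures the SKN-1 and POP-1 partners have a median of -0.49 and 3 Wnt genes lie beyond 2-fold.

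Genes whose levels followed *end-1*, *end-3* or *mom-2* most closely were sought among 12116 others, by the Pearson correlation of log2 CPM over the 16 libraries after each group's mean was subtracted. The nearest to *end-1* were WBGene00021018 (r = 0.93), *C17D12.3* (0.91) and *znf-706* (0.91). The nearest to *end-3* were *C09E9.1* (0.88), *F18A1.7* (0.88) and *psf-2* (0.87), and to *mom-2* *unc-129* (0.84), *W03A5.1* (0.82) and *C13F10.6* (0.80). Libraries share their depth and scaling between genes, and these are the highest of many correlations, so they are given as a description. *end-1* and *end-3* were not among each other's nearest genes.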

How the data were processed

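The authors trimmed reads of poly-A-selected, non-directional libraries with Trimmomatic (v0.39) and quantified them with Salmon (v1.5.1), correcting for sequence and GC bias, against a transcriptome whose release is not given in the sources used here. They deposited estimated counts per gene in a table for each temperature, of which 27.4% of values were not whole (tolerance 0.01), and these were rounded. Their DESeq2 tables also hold fold changes and p-values, which were not used, and the log2 values deposited there served only to check the columns.

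Counts were analysed with edgeR (v4.0.16, R v4.3.3; filterByExpr, TMM, quasi-likelihood test, Benjamini-Hochberg adjustment over all tested genes) on the 8 libraries of each comparison, and on all 16 for the interaction. *fbxa-215* was left out of the percentages of all genes. Standard errors were derived from the F statistic. CPM used TMM factors over all 16 libraries, with 0.5 added before logs, and RPKM used the union of exons in Ensembl release 115 (WBcel235), from which coordinates are 1-based. The scripts were tested on simulated data. Intervals of fold changes carry the spread between libraries, whereas the floor of 3 counts covers counting error only.

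The 10 genes and the lists were chosen with earlier results of these data known. Of the lists, genes were named by rule: up to 3 in each direction past adjusted p of 0.05 between strains, up to 3 past 2-fold between temperatures in N2, and the lineage factors. *cam-1* and *mex-3* fall outside this rule and were named after their values were seen. Results were recomputed with RLE or upper-quartile scaling, limma-voom (v3.58.1), DESeq2 (v1.42.0), no count filter or a minimum of 10, summed *med* genes, a replicate block, the stage score as a covariate, all 16 libraries in a common fit, longest-transcript lengths and each library left out.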

Additional observations from a re-analysis of the deposited data

Results flagged for a closer look

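In groups of 4 libraries a value was singled out where its gap to the nearest library, divided by the range of its group, exceeded Dixon's critical value at 95%, which chance gives in about 1 of 20 groups, and 47 groups were examined. *sys-1* in N2 replicate 3 at 20 °C, at 245 CPM, was above the other N2 libraries, the nearest at 226 CPM, and leaving it out lowered the adjusted p of *sys-1* between strains to 0.0128 (edgeR). The same library had the lowest stage score of its group, -0.74 against -0.55 for the nearest. *mom-2* in N2 replicate 1 at 25 °C, at 193 CPM, was above the nearest at 175 CPM. *med-1* was low in SX3678 replicate 1 at 20 °C, at 0.392 CPM against 0.679 for the nearest, and high in SX3678 replicate 1 at 25 °C, at 0.845 against 0.504 CPM, from 6 and 13 counts. *fbxa-215* in SX3678 replicate 1 at 20 °C, at 0.0653 CPM, rests on its 1 count.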

How the results depend on the processing

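For the 8 tested genes, 678 recomputed log2 fold changes kept their sign and side of the threshold, 50 changed sign, and of those that kept their sign 39 lost the call and 9 gained it. Called beyond 2-fold, the count stayed at 0 in each comparison, and with no fold minimum it was 2, 0, 7, 5 and 0, in the order strain at 20 °C, strain at 25 °C, temperature in N2, temperature in SX3678 and interaction. At 20 °C the genes of the 10 past adjusted p of 0.05 between strains were 1 with upper-quartile scaling, with at least 10 counts in every library and with the stage score, 0 with all 16 libraries in 1 fit, and 0 to 2 when each library was left out. At 25 °C they were 0 to 1 when each was left out. With the stage score as a covariate none passed between temperatures, in N2 (0) or SX3678 (0): the score itself separates the temperatures. Same-numbered libraries had correlations between -0.053 and 0.079. Between strains at 20 °C replicates 1, 3 and 4 were each other's best match, at 0.076, 0.079 and 0.041. In the other comparisons no number was. The labels state no pairing, and the main fits used none. With a replicate block, all genes past adjusted p of 0.05 between strains at 20 °C went from 1812 to 1995 (edgeR). Those of the 10 genes past it were, in the same order, 3, 0, 6, 5 and 0. With that block *lit-1* was gained between strains at 20 °C (adjusted p 0.0492) and *end-3* lost between temperatures in N2 (0.0515). Of the list genes, *oma-1* and *spn-4* lost their calls (0.0537 and 0.0753). Across all genes, calls beyond 2-fold between strains went from 117 to 228 with no count filter, 214 with all 16 libraries, 45 with at least 10 counts everywhere and 26 with the stage score at 20 °C, and from 37 to 19 with at least 10 counts and 4 with the stage score at 25 °C. Those past adjusted p of 0.05 went from 1812 to 329 with the stage score at 20 °C, and from 493 to 7 with it and 800 with all 16 libraries at 25 °C. The score itself separates the strains at 25 °C and nearly does so at 20 °C. Between temperatures calls beyond 2-fold went from 2447 to 1198 with at least 10 counts and 0 with the stage score in N2, and from 2295 to 3523 with no count filter, 1135 with at least 10 counts and 36 with the stage score in SX3678. Those past adjusted p of 0.05 went with the stage score from 7656 to 0 and from 8004 to 38. For the interaction 141 became 293 with DESeq2, 448 with no count filter and 350 with the stage score, and beyond 2-fold 22 became 53, 73 and 64, with 10 by limma-voom and 7 with at least 10 counts. When each library was left out, the genes past adjusted p of 0.05 were 1216 to 1690 between strains at 20 °C, 132 to 843 at 25 °C and 19 to 420 for the interaction, and those beyond 2-fold 102 to 190, 15 to 53 and 4 to 64. With no count filter the median of all genes between temperatures in N2 moved to 0.15. Depth limits *end-3* and the *med* genes.

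Some log2 fold changes changed sign, and the cause was not tested. With upper-quartile scaling these were *mom-2* at 20 °C (-0.0057), and *end-1* (-0.0023) and *ceh-51* (-0.021) at 25 °C. With no count filter they were *skn-1* at 20 °C (0.0022), *wrm-1* between temperatures in N2 (-0.0100) and the interaction of *sys-1* (0.014, with DESeq2 0.00048 and with RLE 0.00055). With at least 10 counts *mom-2* was -0.0030 at 20 °C. With all 16 libraries in 1 fit *skn-1* was 0.0038 and *pop-1* 0.0011 at 20 °C, *end-1* -0.0013 and *ceh-51* -0.019 at 25 °C, *wrm-1* -0.00093 between temperatures in N2 and *pop-1* -0.0073 in SX3678. With the stage score as a covariate the strain difference at 20 °C was 0.092 for *skn-1*, 0.032 for *pop-1* and -0.076 for *ceh-51*, and at 25 °C -0.15 for *end-1*, -0.24 for *end-3*, -0.063 for *mom-2* and -0.12 for *ceh-51*. Between temperatures with that covariate N2 gave 0.71 for *end-3*, -0.65 for *wrm-1*, -1.96 for *lit-1*, 0.18 for *sys-1*, -0.059 for *lin-44* and -2.25 for *bar-1*, and SX3678 gave 0.31 for *end-1*, 0.19 for *end-3*, -0.30 for *pop-1*, -0.34 for *lit-1*, 0.11 for *mom-2* and -0.16 for *bar-1*. When each library was left out, the strain difference at 20 °C ranged from -0.035 to 0.14 for *end-1*, -0.015 to 0.035 for *mom-2*, -0.027 to 0.012 for *pop-1* and -0.027 to 0.025 for *skn-1*. At 25 °C it ranged from -0.087 to 0.10 for *end-1*, -0.035 to 0.11 for *lit-1* and -0.028 to 0.052 for *ceh-51*. The interaction ranged from -0.20 to 0.030 for *end-1*, -0.0097 to 0.078 for *mom-2* and -0.058 to 0.028 for *sys-1*, and *wrm-1* between temperatures in N2 from -0.034 to 0.053.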
